A study of Mus musculus with 9 samples.

Results

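The mitochondrial ribosomal protein genes were taken as all genes whose name begins with Mrpl or Mrps followed by a digit, leaving out 5 pseudogenes with -ps in their name. This name rule, which used no measured value, returned 78 of the 55401 genes in the deposited tables, 49 named Mrpl and 29 named Mrps, spread over 17 chromosomes. Mitochondrial ribosomes translate the few mRNAs of the mitochondrial genome, all of which encode subunits of the oxidative phosphorylation complexes. Their rRNAs come from the mitochondrial genome, whereas their proteins are encoded in the nucleus, made in the cytosol and imported. Acute myeloid leukemia (AML) cells are known for their sensitivity to drugs that block mitochondrial translation. Mrpl proteins build the large subunit, with the peptidyl transferase centre and the exit tunnel, and Mrps proteins the small subunit, which decodes the mRNA. There are 3 exceptions: *Mrps18a* and *Mrps30* encode proteins of the large subunit, and the product of *Mrps36* is known as a component of the 2-oxoglutarate dehydrogenase complex.

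RNA-Seq was performed on H9M cells, a murine AML model in which lineage-negative bone marrow cells of C57BL/6-Ly5.1 mice were transduced with a gammaretroviral vector that carries both *Hoxa9* and *Meis1*. All clones carried a lentiviral color-coding vector and were transplanted as a mixture with helper bone marrow cells into lethally irradiated C57Bl6/J recipients. cKit+CD11bdim splenocytes were sorted by color code into 9 libraries, 3 per group. Mouse #15, sacrificed before endpoint disease, gave all 3 pre-malignant libraries, 1 each of clone 33BC-D, clone 38BC-D and clone 43BC-D. The same clones made up the de novo expanded group, taken from endpoint mice (38BC-D from #13, 43BC-D from #14, 33BC-D from #17). Stably expanded libraries were all of 1 clone, 34BC-D, sorted from each of these endpoint mice. The age of the mice is not given in the sources used here. The pre-malignant state and mouse #15 cannot be told apart, and neither can the stably expanded state and clone 34BC-D. Columns of the tables were tied to a group but not to 1 clone or mouse, so libraries are numbered 1 to 3 within a group and were not paired. The p-values measure the spread between these libraries.

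Each library had between 10379739 and 15551196 reads on genes, of which the 78 genes together received between 21622 and 33828. The sort and design genes were detected in every library, with *Kit* between 142 and 287 CPM (the reads of a gene scaled to all reads on genes in the library), *Itgam* (CD11b) between 27.8 and 85.7 CPM and *Hoxa9* between 315 and 687 CPM. B cell markers summed to between 229 and 277 CPM in the pre-malignant libraries, between 76.8 and 229 CPM in the de novo expanded libraries and between 87.2 and 109 CPM in the stably expanded libraries, with *Ighm* as the largest contributor. *Cd79b* did not follow this sum. It had between 4.66 and 10.1 CPM in the pre-malignant, 4.76 and 9.21 CPM in the de novo expanded and 9.73 and 17.8 CPM in the stably expanded libraries. Erythroid markers summed to 35.2, 18.9 and 19.1 CPM in the pre-malignant, 4.67, 14.9 and 2.29 CPM in the de novo expanded and 5.55, 24.3 and 2.31 CPM in the stably expanded libraries, and *Alas2* of heme synthesis was higher in each pre-malignant library (4.93 CPM or more) than in any leukemic one (4.32 CPM or less). Macrophage markers summed to between 284 and 381 CPM in the pre-malignant, 223 and 331 CPM in the de novo expanded and 268 and 348 CPM in the stably expanded libraries. Of these, the receptor gene *Csf1r* had 97.6, 125 and 160 CPM in the pre-malignant libraries and between 12.5 and 83.8 CPM in the leukemic ones, without overlap, whereas *C1qa*, *C1qb* and *C1qc* stayed under 1 CPM. The abundant markers *Adgre1*, *Cd68* and *Vcam1* overlapped. They ranged from 74.4 to 99.0, 71.1 to 97.6 and 12.4 to 100 CPM in the pre-malignant libraries. In the leukemic ones they ranged from 52.2 to 93.5, 63.8 to 116 and 1.17 to 167 CPM. T cell markers summed to between 1.17 and 4.52 CPM in the 9 libraries. Platelet markers summed to between 61.5 and 65.5 CPM in the pre-malignant, 30.1 and 66.4 CPM in the de novo expanded and 36.2 and 54.9 CPM in the stably expanded libraries, mostly from *Itgb3*, with *Itga2b* between 1.09 and 2.63 CPM, *Pf4* at 0.27 CPM or less and *Ppbp* at 0. Olfactory and vomeronasal receptor genes, which blood cells are not known to use, took 0.0158%, 0.0186% and 0.00833% of the reads in the pre-malignant libraries and between 0.00219% and 0.0121% in the leukemic ones. The part of other cells in the results below was not tested. That of the olfactory and vomeronasal reads was not tested beyond the fits with their share named there.

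The calls described below fell on 4 genes, *Mrpl17*, *Mrpl44*, *Mrpl35* and *Mrpl18*, all of the large subunit. Their promoter stretches, as RefSeq places the start, are shown because the nuclear respiratory factor 1 (NRF1) and the ETS factor GABP are known to bind the promoters of nuclear genes for mitochondrial proteins. Sequences were taken from RefSeq on GRCm38.p6 and run 5′ to 3′ on the strand of the gene from base -250 relative to the RefSeq start, ending where more than 30 bases of an annotated exon would have been included. Capitals mark the NRF1 core TGCGCA, the ETS core CCGGAAG, the YY1 core AAGATGG, the E-box CACGTG and the CCAAT box, each searched on both strands. The NRF1 core and the E-box are their own reverse complement, and none of these motifs contains another. The stretches lie at chr7:105811070-105811337 on the minus strand for *Mrpl17*, chr1:79775768-79775989 on the plus strand for *Mrpl44*, chr6:71823781-71824034 on the minus strand for *Mrpl35* and chr17:12916312-12916341 on the minus strand for *Mrpl18*. The starts in RefSeq and in the deposited gene models are the same for *Mrpl44* and differ for the other genes. The deposited 5′ end of *Mrpl17* is at 105811099, so the end of its stretch, with the NRF1 core at base -12, lies inside the deposited gene. The *Mrpl35* and *Mrpl18* stretches lie inside the deposited span of their gene, downstream of its 5′ end, and all 30 bases of the *Mrpl18* stretch are exonic in the deposited models.
Mrpl17: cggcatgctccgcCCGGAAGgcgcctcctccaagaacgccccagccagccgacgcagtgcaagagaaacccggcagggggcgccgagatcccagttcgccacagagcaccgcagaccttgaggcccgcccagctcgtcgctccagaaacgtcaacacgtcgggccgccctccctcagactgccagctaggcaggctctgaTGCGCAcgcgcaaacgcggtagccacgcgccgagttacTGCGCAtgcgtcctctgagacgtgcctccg
Mrpl44: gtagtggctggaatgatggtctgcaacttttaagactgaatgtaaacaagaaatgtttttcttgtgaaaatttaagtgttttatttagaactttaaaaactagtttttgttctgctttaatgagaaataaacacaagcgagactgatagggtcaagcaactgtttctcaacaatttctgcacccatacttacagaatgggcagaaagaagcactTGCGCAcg
Mrpl35: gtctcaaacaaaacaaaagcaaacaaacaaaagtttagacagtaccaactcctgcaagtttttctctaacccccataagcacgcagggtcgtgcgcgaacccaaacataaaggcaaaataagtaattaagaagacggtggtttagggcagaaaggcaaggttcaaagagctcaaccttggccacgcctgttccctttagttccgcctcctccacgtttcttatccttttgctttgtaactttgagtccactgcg
Mrpl18: actgaaaacgCCGGAAGtagggggctgcgg

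The *Mrpl17* stretch held NRF1 cores beginning at bases -50 and -12 and an ETS core at -237. *Mrpl44* held an NRF1 core at -36, *Mrpl18* an ETS core at -240, with a CCAAT box at -110 beyond the printed stretch, and *Mrpl35* none of the motifs in the printed stretch, with YY1 cores at bases 24 and 37 after its start. Promoters, from 250 bases before to 50 bases after the start, were found for 69 of the 78 genes, 75 promoters in all. The NRF1 core was present in 22 of these (29.3%), against 7.76% of all 32851 promoters and 14.0% of the 11621 promoters of genes that passed the expression filter of the stably expanded comparison. The ETS core was present in 34.7%, against 8.86% of all promoters and 18.8% of those of filtered genes, and the YY1 core in 17.3%, against 6.34% and 7.43%. The E-box (9.33% against 7.15% and 10.2%) and the CCAAT box (40.0% against 37.4% and 38.2%) were found at shares closer to those of other promoters. A match is a description of the letters in this window and does not show a bound site.

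Many of these genes share their promoter region with a neighbour. For 32 of the 78 genes (41.0%), a protein-coding gene on the opposite strand starts within 1000 bases, compared with 10.4% of 20913 protein-coding genes. Examples are *Mrpl18* with the chaperonin subunit gene *Tcp1*, *Mrps12* with the mitochondrial seryl-tRNA synthetase gene *Sars2*, *Mrpl43* with the mitochondrial helicase gene *Twnk*, and the pair *Mrpl46* and *Mrps11*, which are both members. In addition, exons of 32 genes overlap those of another gene, 8 on the same strand and 27 on the opposite strand. The strand setting of the counting is not given in the sources used here, so reads in such overlaps could not be assigned with certainty, and 46 genes are free of any exon overlap.

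Compared per length, the mitochondrial ribosomal protein genes were of intermediate abundance. Levels in RPKM, the CPM divided by the exon length in kilobases, averaged over the 9 libraries, had a median of 9.40 over the 78 genes, 10.5 for Mrpl and 6.74 for Mrps genes, beside 79.5 for 91 cytosolic ribosomal protein genes, 27.8 for 83 nuclear genes of oxidative phosphorylation and 0.103 for the 42643 genes with a read. Although the encoded proteins are subunits of 1 particle, mRNA levels spanned from 0.384 to 44.7 RPKM. The highest levels were those of *Mrpl12*, a stalk protein that also binds the mitochondrial RNA polymerase, *Mrpl18*, *Mrpl54* of the stalk and *Mrps15* of the small subunit. *Mrpl12* had 32.5, 42.1 and 44.2 RPKM in the pre-malignant, 60.9, 46.0 and 43.8 RPKM in the de novo expanded and 44.0, 50.9 and 37.7 RPKM in the stably expanded libraries. *Mrpl12*, *Mrpl18* (mean 43.0 RPKM) and *Mrpl54* (mean 42.5 RPKM) could not be ordered, because the ranges of their libraries overlapped. *Mrps15* followed with a mean of 30.2 RPKM and a highest library (36.9 RPKM) above the lowest ones of the first 3.

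**Figure D1:**
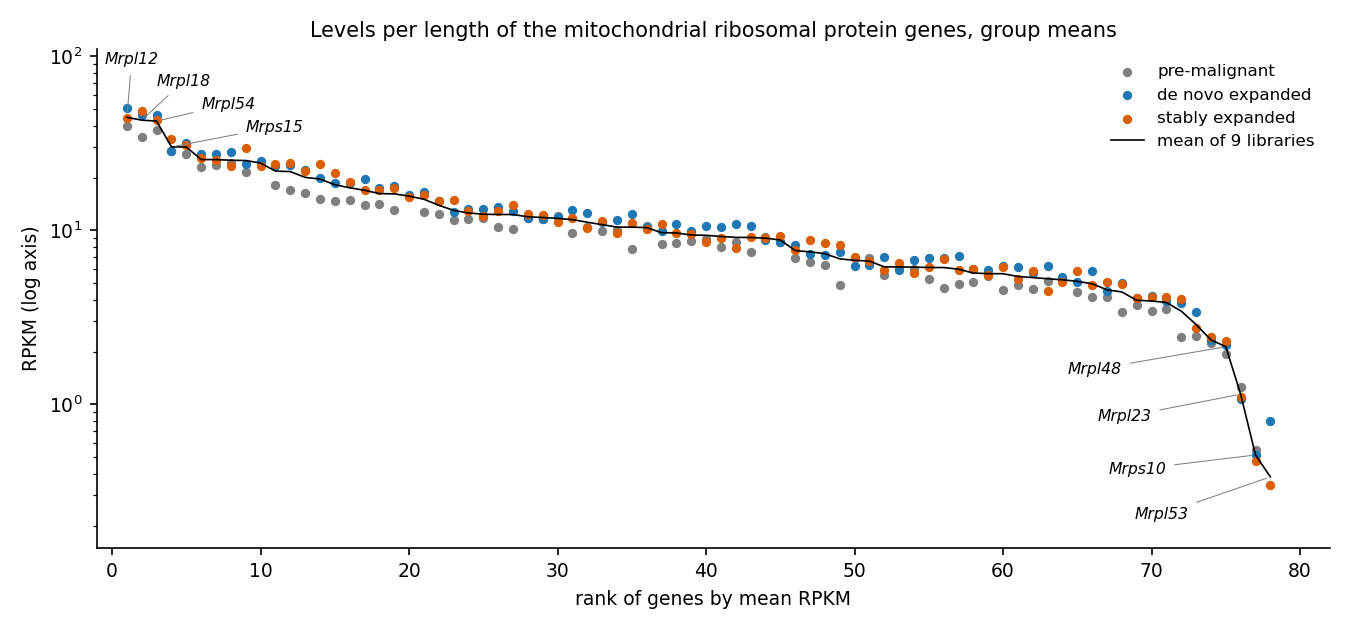
Mean RPKM on a log axis for each of the 78 genes, ranked by the mean over 9 libraries (line), with points for the 3 group means (n = 3 libraries each). Levels fell from 44.7 RPKM for Mrpl12 to 0.384 RPKM for Mrpl53, whose pre-malignant mean of 0 is not drawn.

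At the lower end, *Mrpl48*, *Mrpl23* and *Mrps10* averaged 2.15, 1.14 and 0.512 RPKM over annotated exon lengths of 8152, 4883 and 8079 bases, which lowers a value per length if only a short transcript is made. *Mrpl53*, a stalk protein gene on chromosome 6 from 83109040 to 83109939, was the 1 gene that did not pass the filter of a mean normalized count of at least 10. No pre-malignant library had a read of it (0 reads, which allows 3 at most), de novo expanded libraries had 9, 13 and 5 reads and stably expanded ones 3, 2 and 5. Because of this filter *Mrpl53* was not tested. Its exons also overlap *Gm42688* on the same strand and *Ccdc142os* on the opposite strand. The other genes with the widest spread within a group were *Mrps10*, *Mrpl52* and *Mrps33*. Pre-malignant reads were 28, 84 and 81 for *Mrps10* and 128, 356 and 341 for *Mrpl52*, so that in both genes library 1 was the low one. *Mrps33* reached 6.01 RPKM in stably expanded library 3 against 2.78 and 3.29 RPKM in the other 2 libraries of this group.

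The summed level of the 78 genes was higher in every leukemic library than in every pre-malignant library. It was 1710, 1889 and 2029 CPM in the pre-malignant, 2378, 2137 and 2181 CPM in the de novo expanded and 2207, 2246 and 2083 CPM in the stably expanded libraries. The group means were 1876 ± 160 (SD, n = 3), 2232 ± 128 and 2179 ± 85.2 CPM, corresponding to ratios of 1.19 for de novo expanded and 1.16 for stably expanded over pre-malignant. Mrpl genes contributed ratios of 1.20 and 1.18, and Mrps genes 1.17 and 1.13. On log2 counts normalized over all 9 libraries, the separation was not complete. The median deviation of 77 genes from their own means was -0.25, -0.17 and -0.03 in the pre-malignant libraries. It was 0.20, 0.03 and 0.05 in the de novo expanded and 0.11, 0.08 and -0.04 in the stably expanded libraries. Stably expanded library 3 was thus close to pre-malignant library 3. The sum has no test of its own here, and the 3 pre-malignant libraries are those of 1 mouse in both ratios. Between 8.54% and 13.1% of the reads came from the mitochondrial genome; as a share of the reads outside it, the ratios were 1.18 and 1.13. In a bulk sample, more RNA per cell and more cells with a high level cannot be told apart.

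**Figure D2:**
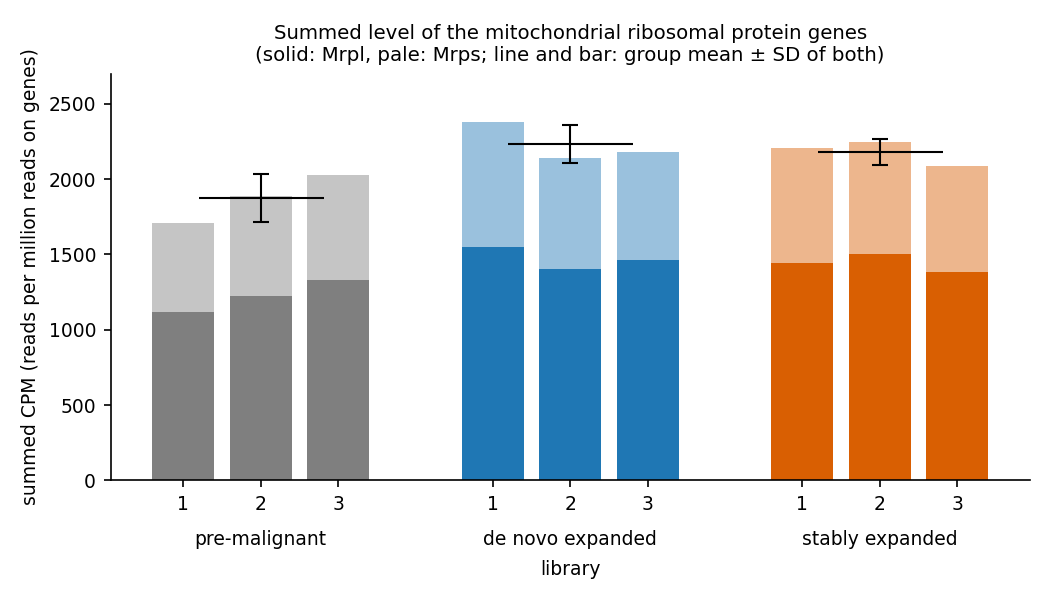
Summed CPM of the 78 genes in each of the 9 libraries, with Mrpl genes as the solid and Mrps genes as the pale part of a bar, and group means ± SD (n = 3) in black. The pre-malignant libraries reach from 1710 to 2029 CPM and the 6 leukemic libraries from 2083 to 2378 CPM.

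The genes varied together to some extent. The mean pairwise correlation of log2 values over the 9 libraries was 0.32 for the 77 genes that passed the filter, and 0.19 after removal of group means. The corresponding values were 0.41 and 0.23 for oxidative phosphorylation genes, 0.45 and 0.42 for cytosolic ribosomal protein genes and 0.0009 and 0.0016 for all 13960 genes, a description over points that share library, depth and normalization. *Mrpl2*, *Mrps12* and *Mrpl36* followed the median of the 77 genes most closely, with correlations of 0.96, 0.95 and 0.92, whereas *Mrpl23*, *Mrpl24*, *Mrps9* and *Mrpl37* had correlations below 0 (-0.29, -0.17, -0.11 and -0.11).

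The comparison of de novo expanded with pre-malignant clones asks which genes differ in clones that grew out after transplantation. Of the 77 genes tested, 71 had a log2 fold change above 0, beside 51.0% of all genes, with a median log2 fold change of 0.27 (a ratio of 1.20) beside 0.01 for all genes and a range from -0.24 to 0.68, but none was called. In limma, 0 of 14195 genes (0.0%) passed an adjusted p-value (Benjamini-Hochberg) of 0.05, and the smallest adjusted p-value of the 77 genes was 0.360. edgeR also called 0 genes, whereas DESeq2 called 135 genes in all and 0 of the 77. At an unadjusted p-value under 0.05, 18 of the 77 genes were higher, beside 5.99% of all genes tested, and 0 were lower, beside 5.26%. In 32 of them all 3 de novo expanded libraries lay above all 3 pre-malignant libraries, beside 10.6% of all genes, and in 0 of them below (8.5%). The 46 genes without exon overlap had a median of 0.30.

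The genes with the largest test statistics in this comparison belonged to the large subunit. *Mrpl42*, whose product has no bacterial counterpart, had 382, 402 and 426 normalized counts in the pre-malignant and 759, 656 and 530 in the de novo expanded libraries, differing by 0.67 on the log2 scale (standard error 0.16, limma adjusted p = 0.360). *Mrpl35* had 249, 281 and 280 against 421, 366 and 434 (log2 fold change 0.59, limma adjusted p = 0.360). *Mrpl17*, at the exit tunnel, had 476, 523 and 540 against 809, 633 and 984 (0.64, limma adjusted p = 0.372). The groups did not overlap in these 3 genes, nor in *Mrpl15*, which averaged 538 ± 74.2 and 749 ± 48.6 normalized counts. Without de novo expanded library 3, in contrast, limma called 619 genes, or 4.35% of those tested, and among them *Mrpl42* (0.81) and *Mrpl16*.

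The genes with the most negative statistics were *Mrpl23* of the exit tunnel (-0.24), *Mrps11* (-0.15), *Mrpl27* (-0.10) and *Mrps9* (-0.04), with limma adjusted p-values from 0.783 to 0.906. Their groups overlapped: for *Mrpl23*, pre-malignant libraries had 78.0, 99.4 and 80.2 normalized counts and de novo expanded ones 93.8, 74.7 and 53.3.

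**Figure D3:**
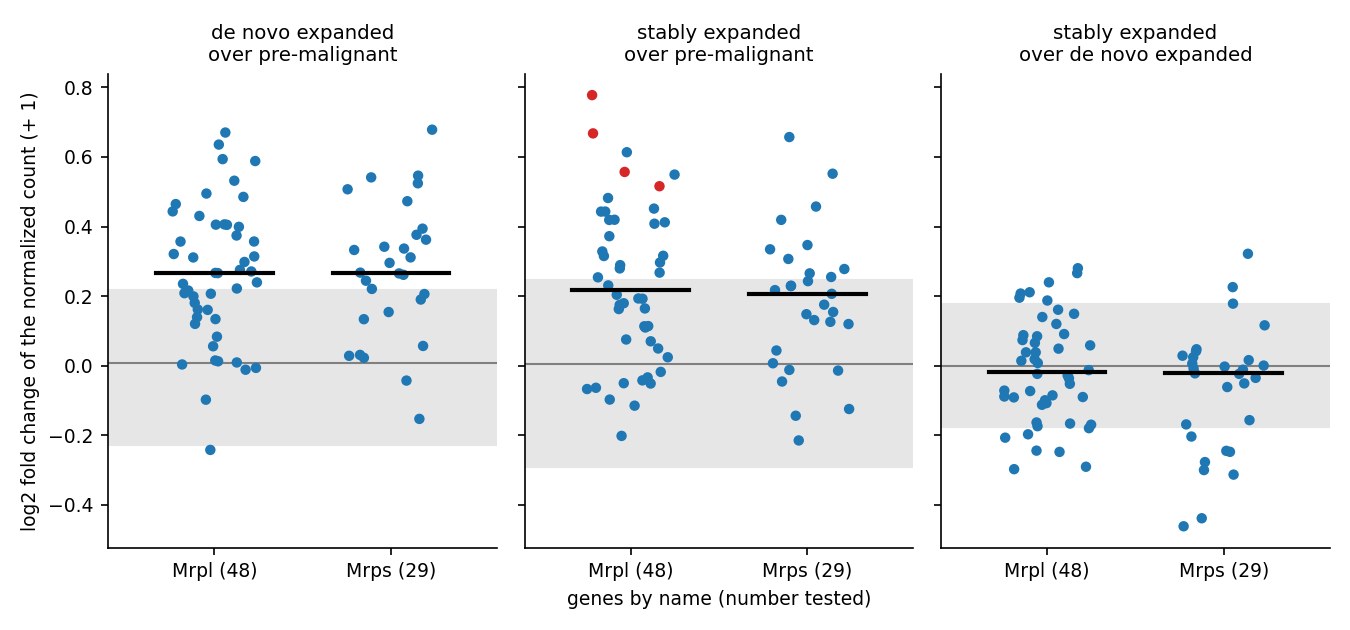
log2 fold change of each of the 77 genes tested (points) by comparison and by name, with medians as black bars; grey bands and lines give the quartiles and the median of all genes tested. Red points mark the 4 genes with a limma adjusted p-value under 0.05, and medians over pre-malignant lie between 0.21 and 0.27, those between the leukemic groups at -0.02.

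Stably expanded clone 34BC-D was compared with the same pre-malignant libraries. In this clone 4 genes, *Mrpl17*, *Mrpl44*, *Mrpl35* and *Mrpl18*, were called higher, by 1.43 to 1.71 times, and none was called lower. The pre-malignant libraries are of other clones, so these are differences between clones and mice and not changes within clone 34BC-D. These are 4 of the 77 genes tested. Of all 13968 genes 7.95% were called, 606 (4.34%) higher and 504 (3.61%) lower, by limma at an adjusted p-value under 0.05, so the share called was close to that of all genes. None of the 4 reached a 2-fold change, the limit used in the study, which 2.75% of all genes passed together with the p-value. In total, 61 of the 77 genes had a log2 fold change above 0, beside 50.5% of all genes, with a median log2 fold change of 0.21 beside 0.00 for all genes and a range from -0.21 to 0.78. At an unadjusted p-value under 0.05, 18 were higher (13.2% of all genes) and 0 lower (12.3%), and in 27 the stably expanded libraries lay above all pre-malignant ones (16.1%) and in 0 below (14.6%).

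*Mrpl17* (chromosome 7 from 105803206 to 105811099) encodes a protein of the large subunit near the exit tunnel. Pre-malignant libraries had 463, 507 and 522 normalized counts of it and stably expanded libraries 819, 919 and 823. The groups lay far apart, by 0.78 on the log2 scale (standard error 0.11, limma adjusted p = 0.00536). *Mrpl44* (chromosome 1 from 79776018 to 79781445) encodes a protein with an RNase III-like fold. Its counts were 299, 368 and 350 against 559, 510 and 543, again without overlap, which is 0.67 on the log2 scale (standard error 0.13, limma adjusted p = 0.0158). *Mrpl44* exons overlap *Wdfy1* on the opposite strand, which was called higher as well (0.48, limma adjusted p = 0.0365).

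*Mrpl35* (chromosome 6 from 71812997 to 71826969) is a large subunit protein with a bacterial counterpart. It had 243, 273 and 271 normalized counts against 394, 407 and 357, a log2 fold change of 0.56 (standard error 0.14, limma adjusted p = 0.0377). *Mrpl18* (chromosome 17 from 12911349 to 12916345) belongs to the central protuberance, where it is known to contact the structural RNA of the particle. Its counts were 549, 627 and 777 against 888, 884 and 996, a log2 fold change of 0.52 (standard error 0.14, limma adjusted p = 0.0453). Here pre-malignant library 3 was the nearest to the stably expanded ones. *Mrpl18* exons overlap *Tcp1*, which was higher by 0.37 (limma adjusted p = 0.0305).

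*Mrpl17* stayed called without any single library, with limma adjusted p-values up to 0.0255. *Mrpl44* was lost without pre-malignant library 1 (0.0552) or stably expanded library 1 (0.0543). *Mrpl35* was lost without any library except stably expanded library 3 (up to 0.119), and *Mrpl18* without any except pre-malignant library 3 (up to 0.146). In 1 fit of all 9 libraries, limma called 0 of the genes and 0.0573% of all genes. With the olfactory and vomeronasal share as a covariate, limma called 0 of the genes and 0.0358% of all genes, with limma adjusted p = 0.251 for *Mrpl17*. The median of the genes was then 0.08. This share was 0.00833% or more in each pre-malignant and 0.00813% or less in each stably expanded library. The fit therefore cannot fully tell the share and the group apart, and its loss of calls has no clear reading.

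**Figure D4:**
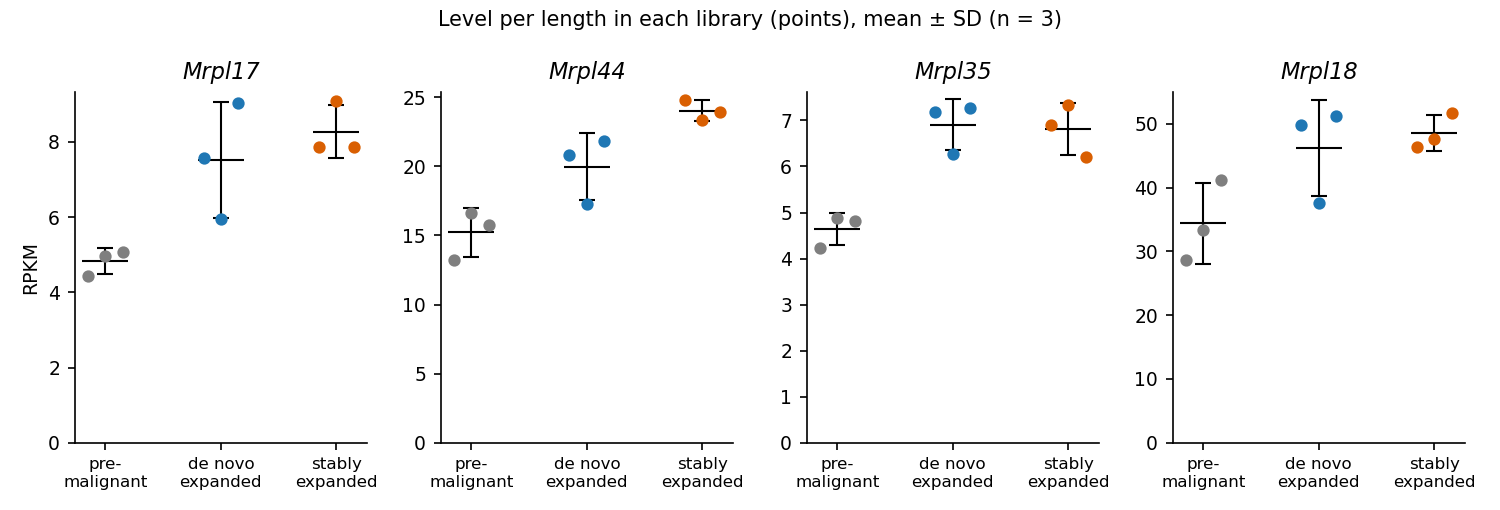
RPKM of the 4 genes called between stably expanded and pre-malignant clones in each of the 9 libraries (points), with means ± SD (n = 3 per group). In each gene the 3 stably expanded libraries lie above the 3 pre-malignant libraries, while 1 de novo expanded library of Mrpl18 (37.5 RPKM) lies below the highest pre-malignant one (41.2 RPKM).

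By position in the particle, the differences from the pre-malignant libraries were spread over both subunits. For genes of the large subunit the median log2 fold change was 0.27 in the de novo expanded and 0.22 in the stably expanded comparison, and for the small subunit 0.27 and 0.21. The 46 genes with a bacterial counterpart had medians of 0.22 and 0.17, and the 30 tested genes without one 0.32 and 0.25. These differences between classes were not tested. Of the stalk genes, *Mrpl12* averaged 847 ± 129 normalized counts before and 1087 ± 194 after de novo expansion (0.36), and *Mrpl10*, *Mrpl11* and *Mrpl54* had log2 fold changes of 0.31, 0.24 and 0.31. None of these passed the test. The 5 genes of the decoding centre and mRNA channel had medians of 0.34 and 0.12. Of these, *Mrps12* had 168, 192 and 209 normalized counts in the pre-malignant and 322, 236 and 239 in the de novo expanded libraries (0.47, limma adjusted p = 0.425). In that comparison *Mrps5* and *Mrps24* had 0.34 each, *Mrps7* 0.03 and *Mrps11* -0.15. The 6 exit tunnel genes had lower medians than the large subunit in the de novo expanded comparison (0.11) and about the same in the stably expanded one (0.22). De novo expanded over pre-malignant, they ranged from -0.24 (*Mrpl23*) to 0.64 (*Mrpl17*), with *Mrpl24* at 0.00, *Mrpl47* at 0.08 and *Mrpl22* at 0.14. *Mrpl45*, which ties the exit tunnel to the inner membrane, had log2 fold changes of 0.27 and 0.37 over pre-malignant (limma adjusted p = 0.557 and 0.171). *Mrpl58*, a peptidyl-tRNA hydrolase that became part of the large subunit, had values of 0.27 and 0.16, and *Mrps36*, outside the ribosome, 0.36 and 0.04.

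The genes with the most negative statistics in the stably expanded comparison were *Mrps18a* (-0.12), *Mrps6* (-0.21), *Mrpl4* (-0.11) and *Mrpl23* (-0.20), with limma adjusted p-values from 0.611 to 0.682. In all 4 the libraries of both groups overlapped, as in *Mrps6*, with 97.8, 115 and 105 against 84.9, 121 and 73.0 normalized counts.

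The 2 leukemic groups, in which the same 3 mice are represented, were set side by side last. Stably expanded over de novo expanded, 34 of 77 genes had a log2 fold change above 0, beside 49.6% of all genes, and 43 below, with a median log2 fold change of -0.02 beside 0.00 for all genes and a range from -0.46 to 0.32. limma called 0 of them, and 1 of 13758 genes (0.00727%), whereas DESeq2 called 0 of them and 35 genes in all. At an unadjusted p-value under 0.05, 0 genes were higher (2.72% of all genes) and 1 was lower (2.11%). That gene was *Mrps18a*, with 656, 527 and 441 normalized counts in de novo expanded against 404, 422 and 359 in stably expanded libraries (log2 fold change -0.44, standard error 0.17, limma adjusted p = 0.891). The related *Mrps18b* and *Mrps18c*, of the small subunit, had values of -0.17 and 0.12. *Mrpl44* had 460, 381 and 491 against 559, 510 and 542 (0.28, limma adjusted p = 0.891), and all stably expanded libraries lay above the de novo expanded ones. It was the 1 gene with this order, beside 4.66% of all genes, whereas 5 genes had the opposite order, beside 4.95%.

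Other genes of mitochondrial translation did not all show the same direction; counts of higher means are read beside 51.0% of all genes in the de novo expanded and 50.5% in the stably expanded comparison. Mitoribosomal proteins without an Mrp name comprise *Dap3*, *Chchd1*, *Ptcd3*, *Aurkaip1* and *Gadd45gip1*. In this group, *Aurkaip1* of the small subunit averaged 848 ± 103 normalized counts in the pre-malignant and 1184 ± 157 in the stably expanded libraries (0.48, limma adjusted p = 0.0479), and the other 4 did not pass. Of 29 genes of mitoribosome assembly, 17 had a higher mean in the de novo expanded and 13 in the stably expanded clones, with medians of 0.10 and -0.06 and no call. The rRNA methyltransferase gene *Nsun4* had log2 fold changes of -0.55 and -0.68 (limma adjusted p = 0.417 and 0.0884). Of 17 translation factors, 13 and 12 had a higher mean (medians 0.14 and 0.18), among them the elongation factor genes *Gfm1* (0.33 and 0.24) and *Tsfm* (0.37 and 0.37), with no call. Of 17 mitochondrial aminoacyl-tRNA synthetases, 10 and 8 had a higher mean (medians 0.14 and -0.10), again with no call, and *Fars2* had values of -0.40 and -0.60. Of 15 tested regulators of mitochondrial transcription and biogenesis, 12 and 8 had a higher mean (medians 0.11 and 0.03) and none passed. *Gabpa*, whose product binds the ETS core, had values of 0.18 and 0.29 (limma adjusted p = 0.515 and 0.0945), *Nrf1* -0.21 and -0.12 and *Polrmt*, the mitochondrial RNA polymerase, -0.28 and -0.38.

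**Figure D5:**
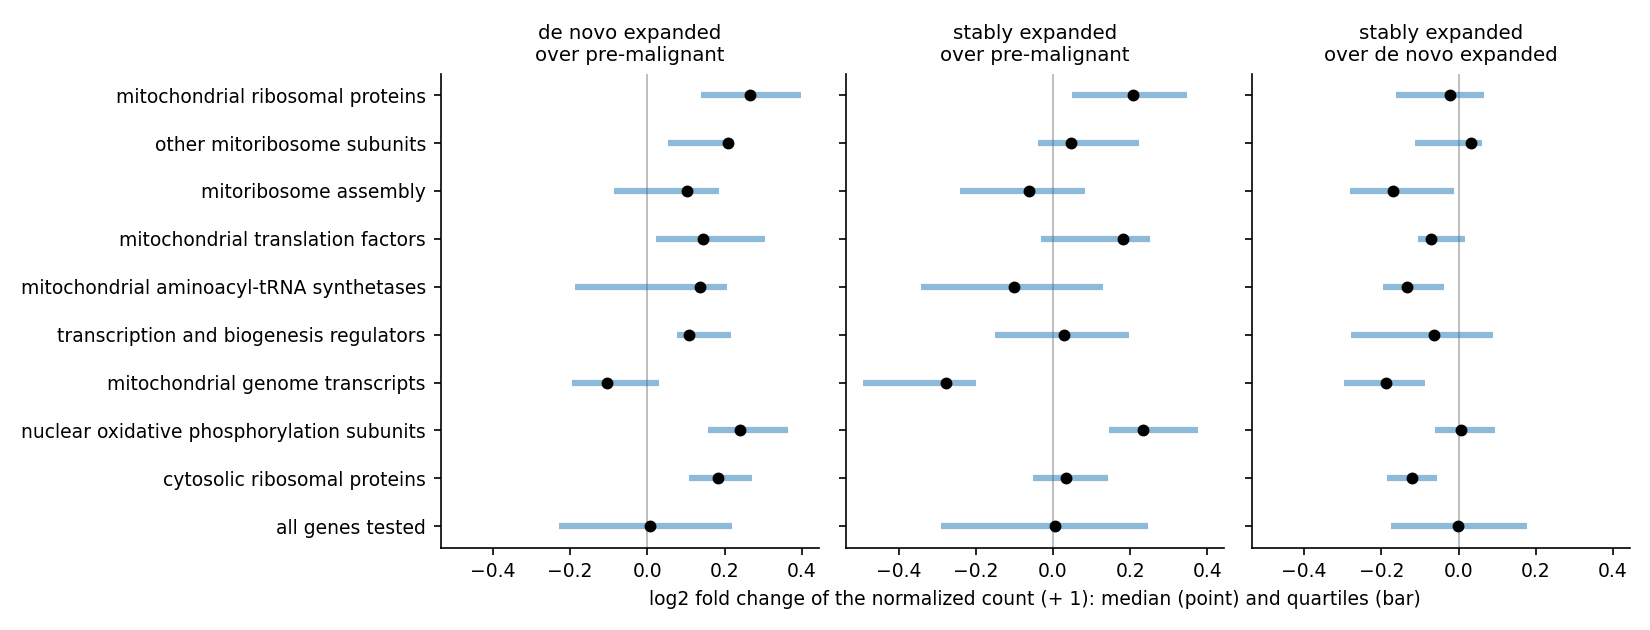
Median (points) and quartiles (bars) of log2 fold changes in 9 gene lists and in all genes tested, by comparison. Mitochondrial ribosomal proteins (0.27 and 0.21) and nuclear oxidative phosphorylation subunits (0.24 and 0.23) have medians above 0 over pre-malignant, and mitochondrial genome transcripts have medians below 0 in all 3 comparisons.

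Nuclear oxidative phosphorylation genes, which encode partners of the mitochondrially made subunits, had medians near those of the mitochondrial ribosomal protein genes. Of 78 tested, 73 had a higher mean in the de novo expanded (median 0.24, no call) and 72 in the stably expanded clones (median 0.23), beside 51.0% and 50.5% of all genes. In the stably expanded clone 8 of the 78 were called higher, beside 4.34% of all genes, among them *Cox6c* (0.70, limma adjusted p = 0.00455), *Ndufv3* (0.83) and *Ndufb10* (0.50). Transcripts of the mitochondrial genome itself had medians of -0.11 (16 tested) and -0.28 (15 tested). The stably expanded libraries were not alike. On counts normalized over 9 libraries, median deviations of 15 transcripts from their own means were -0.36, -0.27 and 0.16. In the pre-malignant libraries these were 0.18, 0.21 and 0.02. De novo expanded over pre-malignant none was called, and stably expanded over pre-malignant 1 was called lower. The transcript called was *mt-Cytb*, encoding cytochrome b, with 26001, 24159 and 24127 normalized counts in the pre-malignant and 16339, 17115 and 21358 in the stably expanded libraries (-0.45, limma adjusted p = 0.0372). Cytosolic ribosomal protein genes had a median of 0.18 in the de novo expanded clones, where 82 of 88 had a higher mean. In the stably expanded clone the median was 0.03, with a higher mean in 55 of 88, and *Rps27a* was called higher (0.45, limma adjusted p = 0.0284). Both columns of values share the pre-malignant libraries. These lists were chosen with results of these data known, and the differences between them were not tested.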

How the data were processed

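The authors aligned reads with STAR 2.6.1d after Trim Galore 0.6.4, counted them with featureCounts 1.6.4 on GRCm38.p6 and scaled the counts with DESeq2 size factors, separately in each of 3 pairwise tables. This signal (normalized counts) was deposited together with log2 fold changes, Wald scores and p-values, which were not used. Division by the value of 1 read gave numbers within 0.05 of a whole read in at least 99.99% of cases, and CPM and RPKM were computed from these reads. Floors cover counting error only. The main test was limma 3.58.1 (R 4.3.3) with the trend option, on log2 of the normalized count plus 1, for genes averaging at least 10, two-sided, with Benjamini-Hochberg adjustment over all genes tested. A fold change on this scale understates the change of low genes. edgeR 4.0.16 and DESeq2 1.42.0 on the recovered reads, other pseudocounts, filters and normalizations, a fit of all 9 libraries, a covariate and leaving out each library were alternatives. The main test was checked on simulated counts. Of genes changed 1.5-fold, it called 1 of 96 in the de novo expanded and 25 of 100 in the stably expanded comparison. Between the leukemic groups it called 1 of 100. At 4-fold it called 67 of 99, 69 of 100 and 52 of 100. The changed genes were drawn at random from all genes tested, and the share of genes changed was a setting of the simulation. In it most changes of 1.5-fold were missed. The rate for the mitochondrial ribosomal protein genes themselves was not estimated, and a gene without a call is not shown to be unchanged. Named genes are those called, the 4 largest statistics in each direction, the highest and lowest levels, fixed roles and the widest spread. *Mrpl2*, *Mrpl36*, *Mrpl16* and the neighbours were picked out once values were known. The genes and lists were chosen with earlier results of these data known. Some items of the design and of the marker lists are not reported here.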

Additional observations from a re-analysis of the deposited data

How the results depend on the processing

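No paired analysis was possible because the columns of the tables carry no label that links them to a clone or a mouse within a group. Of the 77 genes tested, de novo expanded over pre-malignant, 0 were called under every alternative except without de novo expanded library 3; leaving out 1 library gave between 0 and 2 calls. The median log2 fold change stayed between 0.20 and 0.34. Stably expanded over pre-malignant, the 4 calls became 2 with quantile normalization and 0 in 1 fit of all 9 libraries, with the olfactory and vomeronasal share as a covariate, or with a 2-fold limit; leaving out 1 library gave between 1 and 3 calls, DESeq2 gave 6 and edgeR 3. The median was 0.0822 with the covariate and ranged from 0.16 to 0.29 without single libraries. Stably over de novo expanded, 0 genes were called under all 17 alternatives, with medians between -0.06 and 0.00. Genes at an unadjusted p-value under 0.05 that were higher numbered between 5 and 20, between 2 and 21 and between 0 and 3 in the 3 comparisons. With the covariate, *Mrpl23* (0.000162), *Mrps11* (0.0567) and *Mrps9* (0.0273) had values above 0 in the de novo expanded and *Mrpl23* (0.0947) in the stably expanded comparison. In the de novo expanded comparison, leaving out 1 library gave *Mrps9* values from -0.0877 to 0.00756 (without pre-malignant library 2) and *Mrps11* values from -0.300 to 0.00511 (without de novo expanded library 3). The causes were not tested. The summed level as a share of reads outside the mitochondrial genome was chosen after seeing the data. With 3 libraries a group, no exact permutation test of 3 against 3 can give a two-sided p below 0.1.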
